A study of Mus musculus with 12 samples.

Results

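The genes described are 53 mouse genes of the DNA damage checkpoint and of DNA repair, out of 55421 gene identifiers in the count table. They were chosen by name and function, with earlier results of these data already known. The functions are checkpoint kinases, chromatin signalling at breaks, homologous recombination, the Fanconi anaemia pathway, end joining, mismatch repair, excision repair and translesion synthesis. All 53 were found by symbol in the GENCODE M21 annotation, and all 53 passed the filter on low counts in every comparison. Messenger RNA was sequenced from 2 female C57BL6J mouse cell lines, in 3 libraries for each of 4 groups. ID8 is an ovarian surface epithelial cancer line, labelled wildtype. PMJ2R is a peritoneal macrophage line that carries the v-raf and v-myc oncogenes per the labels, so its control cells are oncogene-transformed cells and not primary macrophages. Each line was measured as an untreated control and after 6 h with 5 nM rebastinib, a drug that blocks the receptor kinase TIE2. Each line is 1 cell model. Nothing in the labels ties a replicate to a culture of its own. The p-values therefore cover the variation among these libraries alone, and that variation may be purely technical.

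Cells answer DNA damage through the kinases ATM and ATR, which sit at broken ends and at single-stranded DNA and pass the signal to CHK2 and CHK1. The modified histone H2AX and its reader MDC1 spread the signal over the chromatin around a break, and RNF8, RNF168 and 53BP1 act after them. Breaks are then rejoined directly by end joining or copied from the sister chromatid by homologous recombination, which uses BRCA1, PALB2 and BRCA2, while crosslinks, mismatched bases and damaged bases each have their own pathway. Inherited loss of several of these genes predisposes to ovarian cancer.

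The libraries held 19025504 to 27070556 counts. Rebastinib libraries of both lines gave more of their counts to mitochondrial genes, to ribosomal protein genes and to genes that overlap ribosomal RNA. Mitochondrially encoded genes took 2.80 to 3.02% of counts in ID8 control libraries and 4.54 to 4.91% with rebastinib, and 3.23 to 3.99% and 5.10 to 5.41% in PMJ2R. Genes that overlap ribosomal RNA took 0.106 to 0.355% and 1.05 to 1.60% in ID8, and 0.0927 to 0.172% and 5.63 to 5.99% in PMJ2R. Ribosomal protein genes took 4.04 to 4.68% and 7.5 to 9.26% in ID8, and 4.36 to 5.07% and 6.61 to 6.87% in PMJ2R. A count of 10 or more was reached by 14849 to 14942 and 13575 to 14106 genes in ID8, and by 14099 to 14357 and 12890 to 12987 in PMJ2R. No batch is given in the labels, so handling of the rebastinib libraries cannot be told apart from treatment. Of 12 macrophage markers, 12 stood above 1 CPM (counts scaled to the size of the library) in PMJ2R control libraries and 3 in ID8, where Adgre1, Spi1, Lyz2, Itgam, Tyrobp and Laptm5 had no count. Of 10 markers of ovarian surface epithelium and mesothelium, 9 stood above 1 CPM in ID8 and 0 in PMJ2R. The macrophage markers summed to 14.1 to 15.8 CPM in ID8 control libraries and 33.3 to 38.6 CPM with rebastinib. That rise lay mainly in the means of Cd14 (4.37 to 16.6 CPM), Csf1r (6.58 to 12.5) and Cd68 (3.49 to 5.43). Markers without a count in ID8 control libraries had none with rebastinib either. In PMJ2R the sums were 2455 to 2572 CPM and 3952 to 4040 CPM. There the means of Csf1r (279 to 146 CPM) and Fcgr1 (43.6 to 7.50 CPM) fell, and those of the other markers rose. The part of other cells in the results was not tested.

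In both lines most of the 53 genes had less transcript after rebastinib. Summed over the 53 genes, ID8 control libraries held 2239 to 2284 CPM and rebastinib libraries 1298 to 1374 CPM. The same sum was 2670 to 2745 CPM in PMJ2R control libraries and 1274 to 1309 CPM with rebastinib. The groups did not overlap in either line. CPM values are scaled with TMM factors over all 12 libraries, and fold changes come from edgeR's quasi-likelihood fit of each comparison, with p-values adjusted by Benjamini-Hochberg over all genes tested and a gene called at an adjusted p under 0.05. In bulk samples fewer cells of a kind and less RNA per cell cannot be told apart.

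Of the 53 genes in ID8, 38 fell, 8 rose and 7 were not called, where 80.4% of all 14829 genes tested were called, 42% as lower and 38.4% as higher. A fall of at least 2-fold was called for 21 of the 53 genes against 24.4% of all genes, and no member rose 2-fold against 15.6%. In PMJ2R 45 genes fell, 3 rose and 5 were not called, where 83.7% of 14010 genes were called, 43.6% as lower and 40.1% as higher. At least 2-fold falls numbered 28 of 53 in PMJ2R against 25.7% of all genes, and 0 of 53 rose 2-fold against 15.6%. The median log2 fold change of the 53 genes was -0.80 in ID8 and -1.15 in PMJ2R, beside medians of -0.069 and -0.046 over all genes tested. Control and rebastinib libraries did not overlap for 47 of the 53 genes in ID8 and for 48 in PMJ2R. The share of all genes without overlap was not counted, so these numbers cannot be read as more than usual. The 80.4% and 83.7% of all genes that were called are a different measure. The plot of fold changes by pathway shows that falls were found in every pathway and that the size varied widely within a pathway.

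With library totals as the scaling the median of all genes moved to -0.50 in ID8 and -0.60 in PMJ2R, with 23.9% of all genes higher and 57.2% lower in ID8 and 22.2% and 61.9% in PMJ2R. Members then split 4 higher and 45 lower in ID8 and 0 higher and 51 lower in PMJ2R, with medians of -1.23 and -1.71. Of the 38 members that fell in ID8, 34 stayed called lower under all 15 alternatives, and the exceptions were Bard1, Pms2, Trp53bp1 and Xrcc3. In PMJ2R 44 of the 45 stayed called lower under each alternative that tested them, which was 14 for Rad51c and 15 for the others, and Rnf8 was the exception. The rises held less often, with 4 of 8 in ID8 and 0 of 3 in PMJ2R called higher under all 15 alternatives. Of the genes not called, 0 of 7 in ID8 and 0 of 5 in PMJ2R stayed so under all 15.

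**Figure D1:**
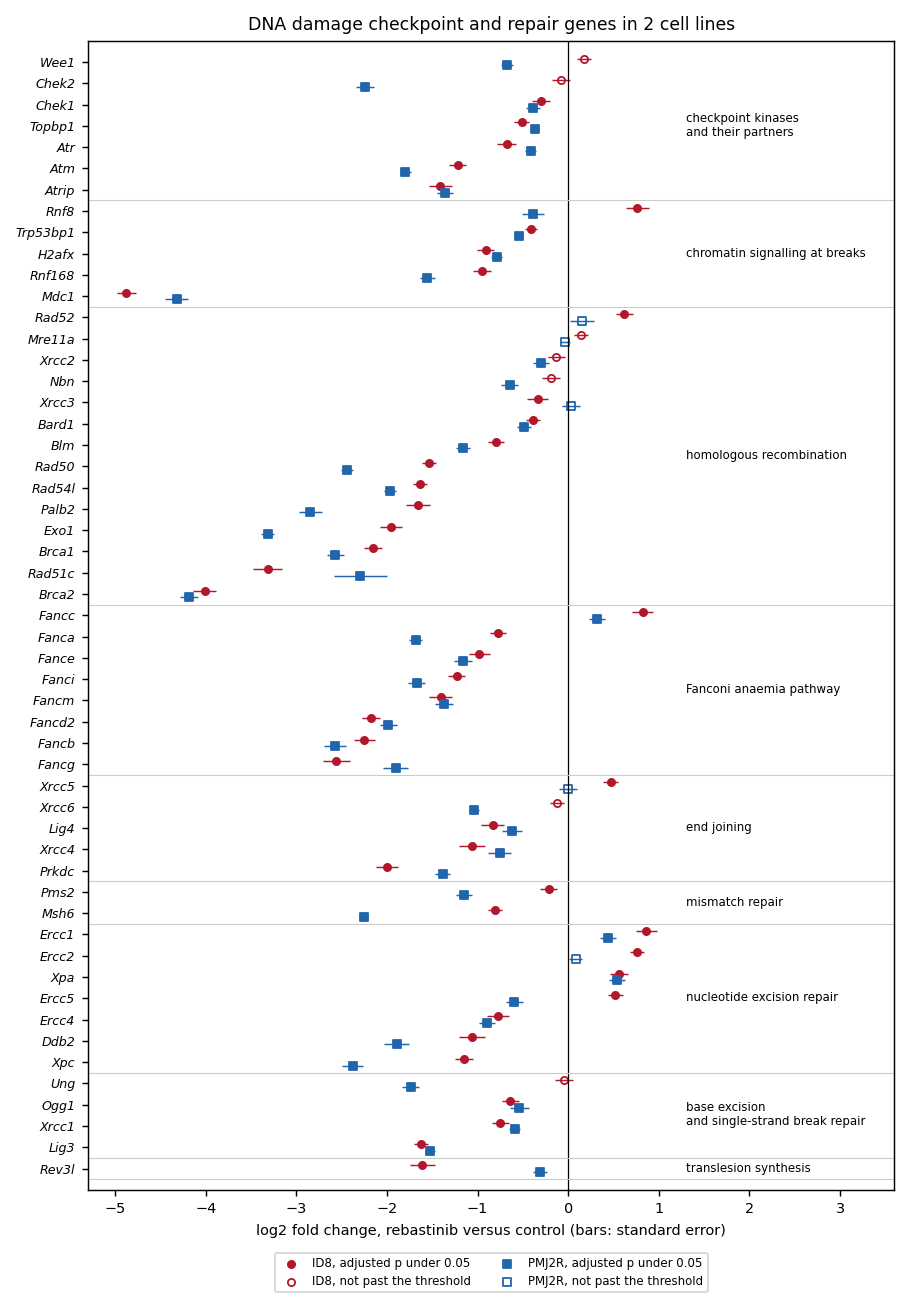
Log2 fold change (x axis, rebastinib versus control) of each of the 53 genes in ID8 (circles) and PMJ2R (squares), grouped by pathway, with bars for the standard error and open symbols for genes that did not pass an adjusted p of 0.05. Most symbols lie left of 0, with Mdc1 and Brca2 farthest left in both lines.

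Promoter sequences are shown for the 4 genes with the lowest mean log2 fold change of the lines among windows free of annotated exons (Mdc1, Brca2, Msh6 and Atrip), and for Xpa, which was called higher in both lines. They come from RefSeq on GRCm38.p6, cover the 250 bases before the annotated start, and read 5′ to 3′ on the strand of the gene. Capitals mark letters that match one of 8 motifs searched on both strands. These were the E2F motif (TTTCCCGC, TTTGGCGC, TTTGCCGC or TTTCGCGC), the CCAAT box (CCAAT), the cell cycle homology region (TTTGAA), the GC box (GGGCGG), the cyclic AMP response element (TGACGTCA), the NRF1 motif, the xenobiotic response element (TTGCGTG) and the antioxidant response element (TGACNNNGC).
Mdc1, chr17:35841248-35841497, + strand: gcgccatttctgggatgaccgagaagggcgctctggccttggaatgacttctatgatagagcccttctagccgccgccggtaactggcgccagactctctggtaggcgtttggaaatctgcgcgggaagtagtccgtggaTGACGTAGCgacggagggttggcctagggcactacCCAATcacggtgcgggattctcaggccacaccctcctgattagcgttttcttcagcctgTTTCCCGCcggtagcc
Brca2, chr5:150522371-150522620, + strand: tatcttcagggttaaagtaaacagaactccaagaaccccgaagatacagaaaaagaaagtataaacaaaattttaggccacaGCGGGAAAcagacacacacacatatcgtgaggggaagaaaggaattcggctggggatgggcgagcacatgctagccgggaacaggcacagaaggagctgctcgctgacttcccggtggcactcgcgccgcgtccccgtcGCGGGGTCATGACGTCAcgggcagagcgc
Msh6, chr17:87974800-87975049, + strand: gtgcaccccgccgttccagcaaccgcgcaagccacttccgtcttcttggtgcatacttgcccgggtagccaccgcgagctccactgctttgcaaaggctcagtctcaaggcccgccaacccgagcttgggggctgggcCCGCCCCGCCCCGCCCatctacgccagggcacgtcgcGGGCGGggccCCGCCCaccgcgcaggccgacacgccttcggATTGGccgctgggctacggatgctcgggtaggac
Atrip, chr9:109074125-109074374, - strand: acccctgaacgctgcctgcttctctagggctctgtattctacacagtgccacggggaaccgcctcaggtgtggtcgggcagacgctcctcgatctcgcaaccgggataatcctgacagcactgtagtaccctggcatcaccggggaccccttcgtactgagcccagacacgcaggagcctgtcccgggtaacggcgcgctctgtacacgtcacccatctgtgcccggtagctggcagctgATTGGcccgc
Xpa, chr4:46196312-46196561, - strand: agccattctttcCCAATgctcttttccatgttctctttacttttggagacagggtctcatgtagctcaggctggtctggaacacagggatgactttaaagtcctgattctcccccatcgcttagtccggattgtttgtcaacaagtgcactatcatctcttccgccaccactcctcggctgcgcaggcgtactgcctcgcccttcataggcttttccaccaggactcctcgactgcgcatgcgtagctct

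Capitals in the Mdc1 window mark an antioxidant response element, a CCAAT box and an E2F motif close to the start. In Brca2 they mark an E2F motif on the opposite strand and, nearer the start, an antioxidant response element that runs straight into a cyclic AMP response element. Msh6 has 5 GC boxes, of which some overlap each other, and a CCAAT box on the opposite strand. Atrip has a CCAAT box on the opposite strand next to its start, and the Xpa window has a single CCAAT box far from the start. A promoter entry within 500 bases of the GENCODE start was used for 40 of the 53 genes and for 16732 genes in all. An E2F motif was found in 6 of the 40 windows (15%), beside 2.43% of all windows. Those 6 genes were Chek2, Topbp1, Mdc1, Brca2, Bard1 and Fancg, and they include large falls (Mdc1, Brca2, Fancg) as well as small ones (Topbp1, Bard1). A GC box was found in 26 of 40 windows (65.0%) against 43.0% of all, and a CCAAT box in 23 (57.5%) against 35.7%. The cell cycle homology region stood in 3 of 40 (7.5%) against 14%, and the antioxidant response element in 6 (15%) against 11.1%. The cyclic AMP response element (1 of 40, 2.5%, against 2.12% of all), the NRF1 motif (1 of 40 against 1.11%) and the xenobiotic response element (2 of 40, 5.00%, against 1.00%) were rare. Among the 13 genes with a window and a fall of at least 2-fold in both lines, 3 (23.1%) held an E2F motif. A match of letters is a description of the window and does not show that a factor binds there.

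The checkpoint kinases fell by unequal amounts. Of 7 kinases and partners, 5 fell in ID8 and 7 in PMJ2R, beside 42% and 43.6% of all genes. None rose, beside 38.4% and 40.1% of all genes. Atm (ENSMUSG00000034218, GRCm38 chr9:53439149-53536740, - strand), the kinase that answers double-strand breaks, stood at 58.2, 58.4 and 48.97 CPM in control libraries and 21.1, 25.5 and 24.2 CPM with rebastinib in ID8. In PMJ2R the Atm values were 156, 158 and 141 CPM in control libraries and 38.95, 43.9 and 42.6 CPM with rebastinib. The groups were separate in both lines, and the log2 fold change was -1.22 (SE 0.10, adjusted p = 3.33e-08) in ID8 and -1.80 (SE 0.064, adjusted p = 2.22e-14) in PMJ2R. Atr, the kinase that answers single-stranded DNA, stood at 36.7, 39.6 and 35.4 CPM in control libraries and 19.1, 24.5 and 25.8 CPM with rebastinib in ID8. For PMJ2R the Atr values were 99.7, 101 and 87.3 CPM in control libraries and 69.8, 68.3 and 68.8 CPM with rebastinib. Its fall was smaller than that of Atm, at -0.68 (adjusted p = 3.84e-05) and -0.42 (adjusted p = 7.72e-06), with no overlap of the groups. Atr shares 1188 bases of exon with genes on the opposite strand. Atrip, whose protein brings ATR to single-stranded DNA, had the largest fall of this group in ID8, from 11.1, 10.8 and 11.8 CPM to 4.49, 3.72 and 4.33 CPM, a log2 fold change of -1.41 (SE 0.13, adjusted p = 1.11e-07). It fell by a like amount in PMJ2R (-1.36, adjusted p = 6.67e-11), and it shares 1147 bases of exon with Trex1 on the same strand.

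Chek1, which encodes the kinase that ATR activates, stood at 29.5, 30.5 and 31.01 CPM in control libraries and 21.1, 26.2 and 26.2 CPM with rebastinib in ID8. The Chek1 values in PMJ2R were 54.5, 50.6 and 44.97 CPM in control libraries and 39.2, 34.8 and 36.2 CPM with rebastinib. These small falls were called in both lines, at -0.30 (adjusted p = 0.0101) and -0.38 (adjusted p = 0.000193). Chek2, which encodes the kinase that ATM activates, stood at 26.7, 26.1 and 25.2 CPM in control libraries and 27.4, 21.02 and 25.02 CPM with rebastinib in ID8, where the groups overlapped and the log2 fold change of -0.081 (SE 0.10, adjusted p = 0.462) was not called. It was called lower there with library totals as the scaling (-0.51, adjusted p = 0.000414) and with length and GC trends removed (-0.31, adjusted p = 0.0061). In PMJ2R, Chek2 stood at 28.6, 25.6 and 25.7 CPM in control libraries and 5.53, 4.75 and 5.92 CPM with rebastinib, a 4.73-fold fall with no overlap (-2.24, SE 0.10, adjusted p = 7.62e-13). Wee1, the kinase that restrains entry into mitosis, fell in PMJ2R (-0.68, adjusted p = 2.58e-08) and was at 0.17 (adjusted p = 0.059) in ID8. Topbp1, the activator of ATR, was the most abundant of these 7 by CPM and fell modestly in both lines, by 0.51 in ID8 and by 0.36 in PMJ2R on the log2 scale.

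Among the genes that signal from chromatin at a break, Mdc1 fell furthest of all 53 genes in both lines, except that in PMJ2R Brca2 fell further with length and GC trends removed. Mdc1 (ENSMUSG00000061607, GRCm38 chr17:35841515-35859670, + strand) stood at 190.4, 184 and 174 CPM in control libraries and 5.37, 5.95 and 7.13 CPM with rebastinib in ID8. The Mdc1 values in PMJ2R were 84.8, 95.3 and 113 CPM in control libraries and 4.64, 3.96 and 5.47 CPM with rebastinib. That was a 29.4-fold fall in ID8, -4.88 (SE 0.10, adjusted p = 4.1e-13) on the log2 scale, and -4.32 (SE 0.12, adjusted p = 1.36e-13) in PMJ2R. Mdc1 shares no exon with another annotated gene. H2afx, which encodes the histone that MDC1 reads, fell much less. Its values were 71.6, 68.9 and 67.9 CPM in control libraries and 41.2, 38.02 and 31.6 CPM with rebastinib in ID8 and 184, 194 and 230.0 CPM in control libraries and 112, 113 and 112 CPM with rebastinib in PMJ2R, log2 fold changes of -0.91 and -0.79. Rnf168, which encodes a ubiquitin ligase for histone H2A, fell as well (-0.95 in ID8 and -1.55 in PMJ2R). Trp53bp1, which encodes 53BP1, a protein that favours end joining, fell by 0.41 in ID8 and 0.55 in PMJ2R. Its ID8 call was lost when trends with transcript length and GC content were removed (0.017, adjusted p = 0.799), and 2130 bases of its exons lie opposite Tubgcp4. Rnf8, which encodes the ligase that acts between MDC1 and RNF168, moved in opposite directions. It rose in ID8 from 5.55, 5.402 and 5.76 CPM to 10.5, 9.01 and 8.75 CPM (0.76, SE 0.12, adjusted p = 5.82e-05) and fell in PMJ2R from 8.34, 7.66 and 9.11 CPM to 6.42, 6.31 and 5.6 CPM (-0.39, SE 0.12, adjusted p = 0.0057). The PMJ2R call was lost with the length and GC trends removed (-0.17, adjusted p = 0.202), and Rnf8 shares 1542 bases of exon with the gene model Gm28043 on the same strand.

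Homologous recombination genes ranged from an 18.2-fold fall of Brca2 in PMJ2R to a rise of Rad52 in ID8. Of its 14 genes, 10 fell, 1 rose and 3 were not called in ID8, where 42% of all genes were lower and 38.4% higher. In PMJ2R 11 fell and 3 were not called, where 43.6% of all genes were lower and 40.1% higher. Brca2 (ENSMUSG00000041147, GRCm38 chr5:150522630-150570329, + strand), a central gene of homologous recombination, stood at 45.5, 44.8 and 40.9 CPM in control libraries and 2.38, 2.28 and 3.28 CPM with rebastinib in ID8. In PMJ2R, Brca2 stood at 46.4, 52.1 and 49.6 CPM in control libraries and 2.605, 2.58 and 2.61 CPM with rebastinib. The log2 fold change was -4.01 (SE 0.13, adjusted p = 7.81e-12) in ID8 and -4.18 (SE 0.10, adjusted p = 2.16e-16) in PMJ2R, with a wide gap between the groups in each line. Brca1, which acts on the resected end before BRCA2, stood at 62.3, 63.5 and 59.9 CPM in control libraries and 12.9, 12.6 and 15.9 CPM with rebastinib in ID8. Its PMJ2R values were 41.7, 42.97 and 42.03 CPM in control libraries and 5.91, 7.81 and 6.68 CPM with rebastinib. The Brca1 groups did not overlap in either line, and the falls were -2.15 (SE 0.10, adjusted p = 1.3e-10) and -2.57 (SE 0.091, adjusted p = 2.11e-14). Palb2, which joins BRCA1 to BRCA2, fell by 1.66 in ID8 and 2.85 in PMJ2R on the log2 scale. Bard1, the obligate partner of BRCA1, fell less (-0.38 and -0.49).

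Rad51c fell from 14.97, 13.6 and 15.4 CPM to 1.11, 1.802 and 1.49 CPM in ID8, a log2 fold change of -3.32 (SE 0.16, adjusted p = 2.74e-10). In PMJ2R it was scarce from the start, at 3.24, 3.198 and 2.56 CPM in control libraries and 0.953, 0.4805 and 0.318 CPM with rebastinib, and the fall of -2.29 (SE 0.29, adjusted p = 9.32e-07) rests on 15, 8 and 5 counts in the rebastinib libraries. Xrcc3 and Xrcc2, also genes of homologous recombination, had smaller fold changes. Xrcc3 was at -0.34 (adjusted p = 0.0128) in ID8, a call that ended without ID8 rebastinib replicate 2 (-0.28, adjusted p = 0.0549), and at 0.031 (adjusted p = 0.785) in PMJ2R. Xrcc2 was at -0.13 (adjusted p = 0.217) and -0.31 (adjusted p = 0.00409). Exo1, which encodes a nuclease that resects broken ends, fell from 37.9, 39.7 and 41.5 CPM to 10.3, 7.99 and 12.1 CPM in ID8 and from 77.3, 79.2 and 83.04 CPM to 6.99, 7.75 and 8.27 CPM in PMJ2R. The groups were separate, with log2 fold changes of -1.95 and -3.32. Rad54l, which encodes a DNA-dependent motor protein, fell by 1.64 and 1.97, and the helicase gene Blm fell by 0.80 and 1.16. Rad52, which encodes an annealing protein, rose in ID8 from 13.2, 14.5 and 14.8 CPM to 21.6, 21.7 and 21.8 CPM (0.62, SE 0.091, adjusted p = 2.1e-05), a call lost with library totals as the scaling (0.19, adjusted p = 0.0847). In PMJ2R its groups overlapped (0.15, adjusted p = 0.284).

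Within 2 complexes that bind broken ends, some genes were called lower and others were not. MRE11, RAD50 and NBS1 form the complex that first binds a broken end. Of their genes, Rad50 fell from 80.3, 81.5 and 78.2 CPM to 26.6, 28.5 and 27.5 CPM in ID8 and from 80.5, 86 and 92.3 CPM to 14.5, 16.4 and 14.7 CPM in PMJ2R, log2 fold changes of -1.54 and -2.44. Mre11a stood at 47.3, 51.9 and 51.96 CPM in control libraries and 50.8, 57.1 and 58.4 CPM with rebastinib in ID8 and overlapped between groups in both lines (0.14, adjusted p = 0.115, and -0.040, adjusted p = 0.503). Nbn, which encodes NBS1, was at -0.19 (adjusted p = 0.0926) in ID8 and fell in PMJ2R (-0.65, adjusted p = 5.21e-06). The kinase complex of end joining was also divided. Prkdc, which encodes its catalytic subunit, fell in both lines, while Xrcc5, which encodes the Ku80 subunit, was called lower in neither, and Xrcc6, which encodes Ku70, fell in PMJ2R. Differences between members of a complex were not tested.

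**Figure D2:**
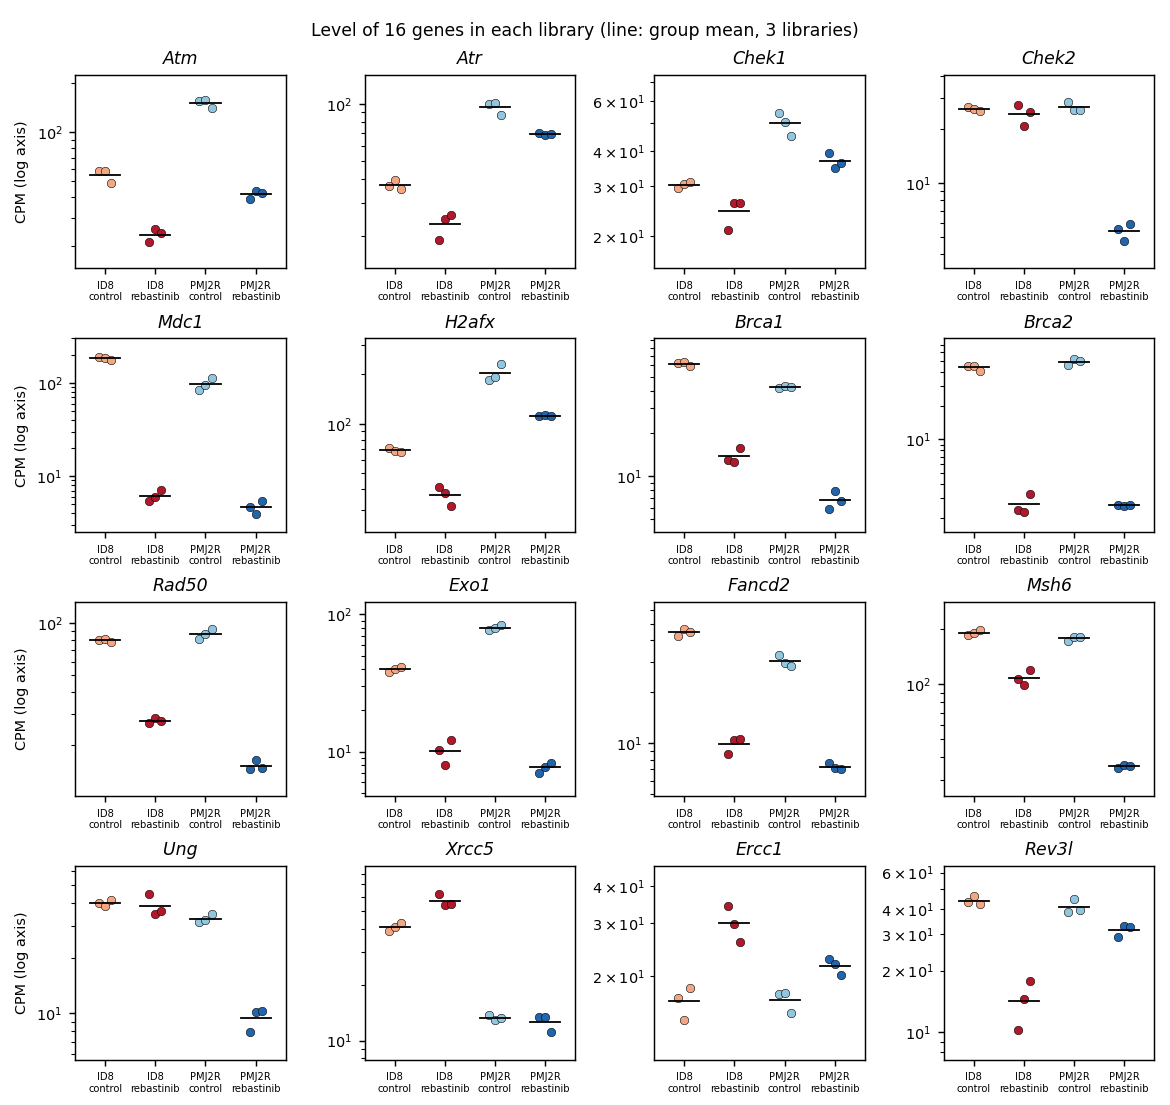
CPM on log axes (each panel has its own range) of 16 genes in each of the 12 libraries, with a line at each group mean. Control and rebastinib points are far apart for Mdc1 and Brca2 in both lines, for Chek2 and Ung they are apart in PMJ2R and mixed in ID8, and Ercc1 lies higher with rebastinib.

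The Fanconi anaemia genes, which act on crosslinks between DNA strands, fell in all but 1 case. Of 8 genes, 7 fell and 1 rose in each line, beside 42% of all genes lower in ID8 and 43.6% in PMJ2R. At least 2-fold falls numbered 5 in ID8 and 7 in PMJ2R, beside 24.4% and 25.7% of all genes. Fancd2, whose product is loaded onto DNA together with that of Fanci, stood at 42.7, 46.8 and 44.9 CPM in control libraries and 8.59, 10.4 and 10.6 CPM with rebastinib in ID8. Its PMJ2R values were 32.6, 29.5 and 28.2 CPM in control libraries and 7.69, 7.15 and 7 CPM with rebastinib. The fall was -2.17 (adjusted p = 1.65e-10) in ID8 and -1.99 (adjusted p = 1.32e-12) in PMJ2R without overlap. Fancg, a subunit gene of the core complex that modifies FANCD2, had the largest fall of the group in ID8, from 11.8, 13.03 and 10.7 CPM to 2.05, 2.16 and 1.84 CPM (-2.56, SE 0.15, adjusted p = 1.67e-09), and fell by 1.91 in PMJ2R. Fancb, also a core subunit gene, had the largest fall in PMJ2R, from 21.2, 22.7 and 19 CPM to 3.56, 3.06 and 3.5 CPM (-2.58, SE 0.12, adjusted p = 9.99e-13), and fell by 2.25 in ID8. The core genes Fanca and Fance, the helicase gene Fancm and Fanci fell by 0.78 to 1.41 in ID8 and by 1.16 to 1.68 in PMJ2R. Fancc, another core subunit gene, went the other way, from 6.19, 6.91 and 6.67 CPM to 12.2, 10.9 and 11.7 CPM in ID8 (0.82, SE 0.11, adjusted p = 1.1e-05). In PMJ2R it went from 11.9, 12.9 and 12.6 CPM to 14.7, 15.3 and 14.6 CPM (0.32, SE 0.088, adjusted p = 0.00295), which reversed to -0.24 with library totals as the scaling and was not called without a filter on low counts (0.11, adjusted p = 0.385). Exons of Fancc share 1558 bases with genes on the opposite strand.

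End joining genes were divided. Prkdc (ENSMUSG00000022672, GRCm38 chr16:15637866-15842235, + strand), which encodes the catalytic subunit of the DNA-dependent protein kinase, stood at 25.9, 28.5 and 26.1 CPM in control libraries and 5.65, 8.17 and 6.34 CPM with rebastinib in ID8. In PMJ2R its values were 50.2, 56.4 and 48.3 CPM in control libraries and 18.2, 19.8 and 18.8 CPM with rebastinib. It fell by 4-fold in ID8 (-2.0, SE 0.12, adjusted p = 2.71e-09) and by 2.62-fold in PMJ2R (-1.39, SE 0.078, adjusted p = 1.1e-11). Xrcc5 stood at 39.3, 41.1 and 43.2 CPM in control libraries and 61.9, 53.9 and 54.5 CPM with rebastinib in ID8 and rose (0.47, SE 0.080, adjusted p = 8.9e-05), though with library totals as the scaling it was at 0.032 (adjusted p = 0.715). In PMJ2R the groups of Xrcc5 overlapped (-0.0034, adjusted p = 0.976). Xrcc6 overlapped in ID8 (-0.12, adjusted p = 0.144) and fell in PMJ2R from 95.9, 100. and 95.9 CPM to 44.5, 44.8 and 46.6 CPM (-1.04, adjusted p = 3.03e-12). Xrcc4 and Lig4, whose products seal the ends together, fell by 1.06 and 0.84 in ID8 and by 0.76 and 0.62 in PMJ2R.

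Both mismatch repair genes fell more in PMJ2R. Msh6, which encodes a subunit of the sensor for single mismatches, stood at 184, 190.2 and 197 CPM in control libraries and 106, 98.7 and 119.6 CPM with rebastinib in ID8. The Msh6 values in PMJ2R were 172, 182 and 181 CPM in control libraries and 34.9, 36.4 and 35.8 CPM with rebastinib. All groups were separate, with a 1.75-fold fall in ID8 (-0.81, SE 0.077, adjusted p = 2.15e-07) and a 4.78-fold fall in PMJ2R (-2.26, SE 0.052, adjusted p = 1.43e-16). Pms2, which encodes a subunit of the nuclease that nicks the strand, fell by 1.15 in PMJ2R. In ID8 it was close to the threshold (-0.22, adjusted p = 0.0485), and the call held in 4 of 15 alternatives, of which 1 left out a library (ID8 rebastinib 3). Leaving out any other single library ended it (-0.24 to -0.16), and with length and GC trends removed Pms2 was at 0.045 (adjusted p = 0.634).

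Nucleotide excision repair genes, which remove bulky lesions, held 4 of the 8 members that rose in ID8 and 2 of the 3 that rose in PMJ2R. Of 7 genes, 4 rose (57.1%) and 3 fell (42.9%) in ID8, where 38.4% of all genes were higher and 42% lower. In PMJ2R 2 rose (28.6%), 4 fell (57.1%) and 1 was not called, where 40.1% of all genes were higher and 43.6% lower. Ercc1, a subunit gene of the nuclease that cuts 5′ of the lesion, stood at 16.9, 14.3 and 18.3 CPM in control libraries and 34.2, 29.8 and 26.1 CPM with rebastinib in ID8. Its values in PMJ2R were 17.4, 17.6 and 15.1 CPM in control libraries and 22.9, 22.04 and 20.2 CPM with rebastinib. The groups were separate in both lines and the rises were 0.86 (SE 0.12, adjusted p = 8.81e-06) and 0.44 (SE 0.090, adjusted p = 0.00021), although the PMJ2R value was -0.12 (adjusted p = 0.23) with library totals as the scaling. Ercc4, the partner of Ercc1 in that nuclease, fell in both lines (-0.78 and -0.90). Xpa, which encodes a scaffold that holds the opened damaged strand, rose from 12.5, 12.1 and 10.9 CPM to 16.01, 17.96 and 18.1 CPM in ID8 (0.56, adjusted p = 0.00015). In PMJ2R it went from 15.2, 16.3 and 13.5 CPM to 21.2, 20.96 and 20.6 CPM (0.54, adjusted p = 2.5e-05), which reversed to -0.021 with library totals. With length and GC trends removed the ID8 value of Xpa was 0.083, and with library totals it was 0.13 (adjusted p = 0.296), neither of them called.

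Xpc and Ddb2 fell in both lines, while Rad23b and Ddb1 of the second list, whose products partner theirs, rose in both (0.39 and 0.54 in ID8, 0.72 and 1.03 in PMJ2R). Xpc, which encodes the sensor of helix distortion, stood at 20.6, 21 and 21.5 CPM in control libraries and 8.64, 10.4 and 9.27 CPM with rebastinib in ID8. The Xpc values in PMJ2R were 19.1, 19.3 and 22.9 CPM in control libraries and 3.37, 4.204 and 3.69 CPM with rebastinib. The falls of Xpc, without overlap, were -1.15 (SE 0.10, adjusted p = 9.79e-08) and -2.38 (SE 0.12, adjusted p = 1.87e-12). Ddb2, a sensor gene for ultraviolet lesions and a known p53 target, fell by 1.06 and 1.89, and 652 bases of its exons lie opposite Acp2. Ercc2, a helicase gene of the factor TFIIH, rose in ID8 from 33.1, 31.3 and 34.7 CPM to 58.2, 53.4 and 55.2 CPM (0.76, adjusted p = 4.38e-07) and overlapped in PMJ2R (0.080, adjusted p = 0.279). Its exons share 1769 bases with genes on the opposite strand. Ercc5, which encodes the nuclease that cuts 3′ of the lesion, rose in ID8 from 22.8, 24.2 and 23.8 CPM to 32.9, 34.8 and 33.5 CPM and fell in PMJ2R from 16.1, 15.4 and 15.3 CPM to 8.83, 10.5 and 10.3 CPM. Both were called (0.52, adjusted p = 3.22e-05, and -0.60, adjusted p = 1.7e-05), though the ID8 value was 0.088 (adjusted p = 0.349) with library totals as the scaling.

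In base excision and single-strand break repair 3 of 4 genes fell in ID8 and 4 of 4 in PMJ2R, beside 42% and 43.6% of all genes. Lig3, which encodes the ligase that seals nicks with XRCC1, stood at 83.5, 79.7 and 78.8 CPM in control libraries and 24.6, 26.2 and 27.4 CPM with rebastinib in ID8. In PMJ2R it stood at 105, 108 and 111 CPM in control libraries and 36.8, 35.5 and 35.7 CPM with rebastinib. The fall was -1.62 (adjusted p = 1.97e-10) and -1.52 (adjusted p = 1.79e-14), and 1826 bases of its exons lie opposite Rffl. Xrcc1, its partner, fell by 0.75 and 0.59, and the 8-oxoguanine glycosylase gene Ogg1 fell by 0.64 and 0.54. Ung, which encodes the glycosylase that removes uracil, had overlapping groups in ID8, at 39.8, 38.5 and 41.5 CPM in control libraries and 44.9, 34.7 and 36.04 CPM with rebastinib (-0.047, adjusted p = 0.657). In PMJ2R the Ung values were 31.5, 32.2 and 34.9 CPM in control libraries and 7.88, 10.2 and 10.2 CPM with rebastinib, a 3.34-fold fall (-1.74, SE 0.093, adjusted p = 5.22e-12). Rev3l, which encodes the catalytic subunit of the translesion polymerase zeta, showed the opposite order of the lines. It stood at 43.04, 45.97 and 42.3 CPM in control libraries and 10.3, 14.5 and 17.8 CPM with rebastinib in ID8 and at 38.7, 44.5 and 39.5 CPM in control libraries and 29.1, 33.03 and 32.7 CPM with rebastinib in PMJ2R. Its fall was -1.61 (SE 0.14, adjusted p = 8.06e-08) in ID8 and -0.31 (SE 0.074, adjusted p = 0.000864) in PMJ2R, with separate groups in each.

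Set side by side, 37 of the 53 genes fell in both lines and 3 rose in both (Fancc, Xpa and Ercc1). Rnf8 and Ercc5 were the 2 genes that rose in ID8 and fell in PMJ2R, and none did the reverse. A further 6 were called lower in PMJ2R alone, 1 was called lower in ID8 alone (Xrcc3), 3 were called higher in ID8 alone (Rad52, Xrcc5 and Ercc2) and Mre11a was called in neither. The 6 were Chek2, Wee1, Xrcc2, Nbn, Xrcc6 and Ung, and with library totals as the scaling all 6 were called lower in ID8 as well (-0.62 to -0.26). With length and GC trends removed Chek2 and Nbn (-0.38, adjusted p = 0.00118) were called lower in ID8, and Wee1 (0.27) and Mre11a (0.33) higher. The same fit called Ercc2 (0.48, adjusted p = 1.83e-06) and Xrcc3 (0.30, adjusted p = 0.0118) higher in PMJ2R. Of all 12398 genes tested in both lines, 30.2% were lower in both and 29.9% higher in both. A fall of at least 2-fold in both lines was called for 19 of the 53 genes (35.8%), beside 14.4% of those 12398 genes. These 19 were Atm, Atrip, Mdc1, Brca1, Brca2, Palb2, Rad51c, Rad54l, Rad50, Exo1, Fancb, Fancd2, Fancg, Fanci, Fancm, Prkdc, Lig3, Xpc and Ddb2. Another 9 genes (Chek2, Rnf168, Blm, Fanca, Fance, Xrcc6, Msh6, Pms2 and Ung) passed 2-fold in PMJ2R but not in ID8, and Xrcc4 and Rev3l did so in ID8 but not in PMJ2R. The log2 fold changes of the 2 lines, which share no library, had a Pearson r of 0.83 and a Spearman rho of 0.78 over the 53 genes, beside 0.70 and 0.70 over all genes tested in both. These are descriptions across genes, which are not independent replicates.

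**Figure D3:**
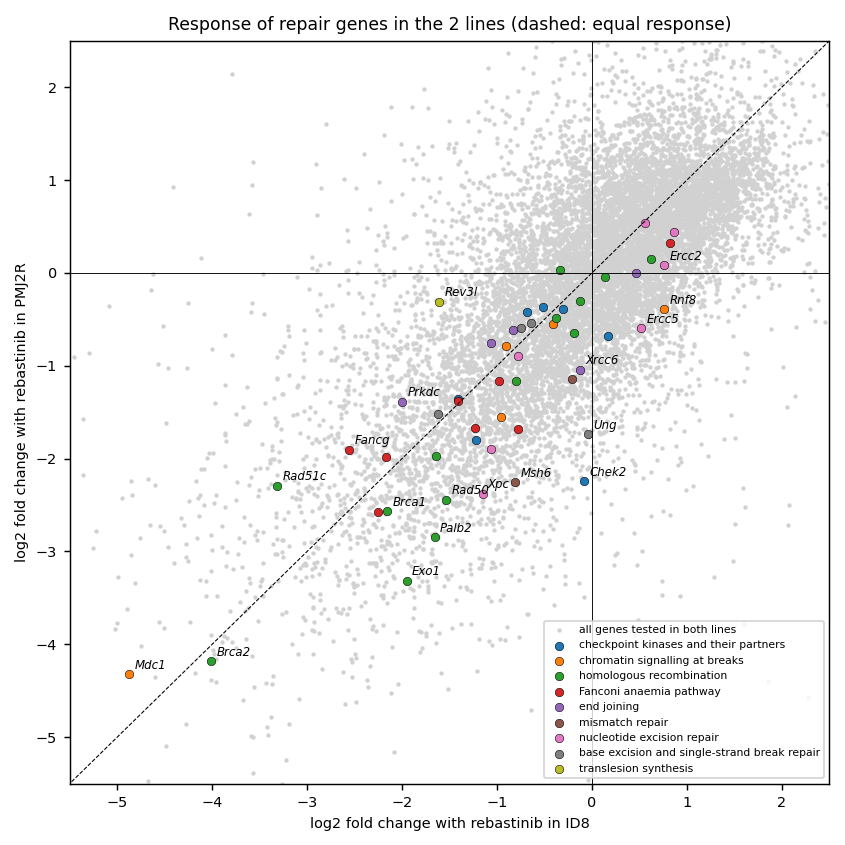
Log2 fold change with rebastinib in ID8 (x axis) against PMJ2R (y axis), with grey points for all genes tested in both lines that fall within the axes and coloured points for the 53 genes by pathway. Most coloured points lie in the lower left area, and more of them lie below the dashed line of equal response than above it.

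The difference of the response between the lines was tested as an interaction over all 12 libraries, coded as the PMJ2R response minus the ID8 response. It was called for 32 of the 53 genes, 27 lower and 5 higher in PMJ2R, where 52.4% of all 16566 genes were called, 30.6% as lower and 21.8% as higher. A difference of at least 2-fold was called for 8 genes as lower (11.5% of all genes) and 1 as higher (11%). With RLE size factors the median of all genes moved from -0.10 to 0.019. The members then split 25 lower and 7 higher, where 25.3% of all genes were lower and 25.7% higher. The interaction with the smallest p was that of Msh6 (-1.50, SE 0.10, adjusted p = 8.34e-12), whose rebastinib libraries stood at 98.7 to 119.6 CPM in ID8 and at 34.9 to 36.4 CPM in PMJ2R, against control libraries at 185 to 197 and 172 to 182 CPM. Next were Chek2 (-2.22, SE 0.15, adjusted p = 2.27e-11) and Ung (-1.75, SE 0.14, adjusted p = 5.67e-10), both called in PMJ2R and not in ID8. Xrcc6 (-0.97, SE 0.093, adjusted p = 6.41e-09), Ercc5 (-1.17, SE 0.12, adjusted p = 2.46e-08) and Exo1 (-1.42, SE 0.15, adjusted p = 3.26e-08) followed. Atm also fell more in PMJ2R (-0.63, adjusted p = 7.87e-05), whereas Atr (0.21, adjusted p = 0.169) and Chek1 (-0.14, adjusted p = 0.383) were not called. All 3 were called lower with length and GC trends removed, Atm at -1.21, Atr at -0.32 (adjusted p = 0.0107) and Chek1 at -0.32 (adjusted p = 0.0145), whereas with RLE size factors Atr was called higher (0.33, adjusted p = 0.0304).

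Rev3l stood out in the other direction, with the smaller fall in PMJ2R (1.24, SE 0.16, adjusted p = 1.13e-06), and it was called under all 21 alternatives. Its difference was 0.63 with length and GC trends removed, beside 0.73 for Fancg in the same fit. The other 4 higher calls depended on the fit. Prkdc (0.56, adjusted p = 0.00259) was at -0.093 and not called with length and GC trends removed. Mdc1 (0.50, adjusted p = 0.0283) held its call in 11 of 21 alternatives, and leaving out any of 6 single libraries (ID8 control 1, ID8 rebastinib 1 or 2, PMJ2R control 1, PMJ2R rebastinib 1 or 3) ended it, with values of 0.37 to 0.50. Rad51c (0.97, adjusted p = 0.0446) held in 8 of 21 and fell to 0.43 (adjusted p = 0.506) without PMJ2R rebastinib 1. It was also not called without ID8 control 1 or 3, ID8 rebastinib 1 or 3, PMJ2R control 3 or PMJ2R rebastinib 2 (0.80 to 1.08). Fancg (0.60, adjusted p = 0.0239) was not called without ID8 control 2, ID8 rebastinib 3, PMJ2R rebastinib 1 or PMJ2R rebastinib 3 (0.50 to 0.57). Of the 27 lower calls 25 held under all 21 alternatives, and the exceptions were Mre11a and Ercc1. With length and GC trends removed 33 genes were lower (31.1% of all) and 5 higher (21.1%).

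**Figure D4:**
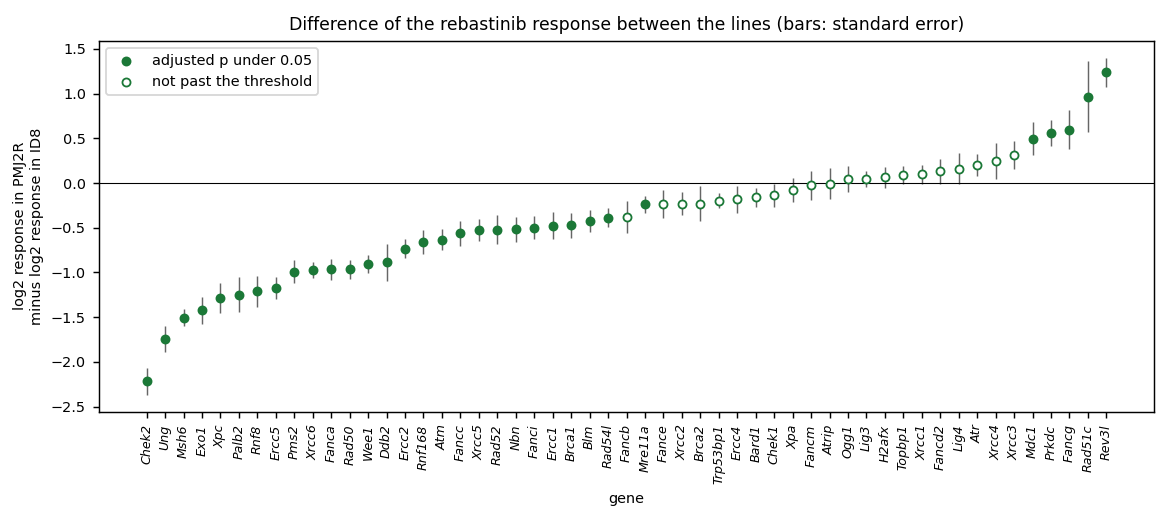
Difference of the log2 response between the lines (y axis, PMJ2R minus ID8) for the 53 genes in order of size, with bars for the standard error and filled points for an adjusted p under 0.05. Chek2 lies lowest at -2.22 and Rev3l highest at 1.24, and most filled points lie below 0.

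In untreated control libraries the lines differed in individual genes, without a common direction over the 53. Of the 53 genes, 19 were higher and 18 lower in PMJ2R control than in ID8 control libraries, where 82.3% of 15924 genes were called, 39.4% as higher and 42.9% as lower. The groups did not overlap for 41 of the 53 genes. The share of all genes without overlap was not counted here either, and the 82.3% called is a different measure. At least 2-fold differences numbered 3 higher (18.1% of all genes) and 3 lower (25.6%), and the median log2 difference was -0.077 beside -0.030 over all genes. Rad51c stood at 14.97, 13.6 and 15.4 CPM in ID8 and 3.24, 3.198 and 2.56 CPM in PMJ2R, a log2 difference of -2.39 (SE 0.12, adjusted p = 1.44e-13). Xrcc5 stood at 39.3, 41.1 and 43.2 CPM in ID8 and 13.7, 12.9 and 13.2 CPM in PMJ2R (-1.75, SE 0.071, adjusted p = 7.71e-15), while its Ku partner Xrcc6 overlapped between the lines (-0.10, adjusted p = 0.141). H2afx was higher in PMJ2R, at 184, 194 and 230.0 CPM against 71.6, 68.9 and 67.9 CPM (1.43, SE 0.074, adjusted p = 3.75e-13). Atm (1.35, SE 0.074, adjusted p = 1.08e-12) and Atr (1.26, SE 0.072, adjusted p = 2.14e-12) were also higher in PMJ2R, and Mdc1 was lower (-1.01, SE 0.082, adjusted p = 2.46e-09). Chek1 was higher in PMJ2R (0.61, adjusted p = 1.97e-07), and Chek2 overlapped between the lines (-0.077, adjusted p = 0.323). Of the 7 checkpoint kinases and partners, 5 were higher in PMJ2R and 0 lower, beside the 39.4% and 42.9% of all genes. With length and GC trends removed 27 genes were higher (41% of all) and 18 lower (44.1%), with a median of 0.14. The control calls of Bard1, Ercc2, Rev3l and Xpa turned to the opposite call in 1 or 2 of 15 alternatives. Xpa kept its call in 6 of 15.

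Levels of different genes were compared as CPM per kilobase of the longest annotated transcript. That transcript has 1 exon for Rad52 and for Ung and 4 exons for Rad54l. Whether it is the main transcript of a gene was not tested, so levels per kilobase are uncertain for such genes. H2afx led in ID8 control libraries at 50.2 ± 1.40 (SD, n = 3), above Msh6 at 44.8 ± 1.44 and Topbp1 at 37.9 ± 0.959. It also led in PMJ2R control libraries at 146 ± 17.5, where Topbp1 stood at 61.7 ± 1.19 and Msh6 at 41.9 ± 1.25. With rebastinib the top of the ID8 order closed up, since Xrcc6 at 26.8 ± 1.89, H2afx at 26.7 ± 3.53, Topbp1 at 26.5 ± 3.15 and Msh6 at 25.5 ± 2.49 lay within each other's spread. In PMJ2R with rebastinib H2afx (81.1 ± 0.369) and Topbp1 (46.0 ± 2.19) stayed at the top. Mdc1 ranked 5 of 53 in ID8 control libraries and 49 with rebastinib, and 11 and 50 in PMJ2R. Brca2 was last in ID8 with rebastinib at 0.247 ± 0.0513 and next to last in PMJ2R at 0.242 ± 0.00134, above Rad51c at 0.148 ± 0.0836. The lowest in control libraries were Rnf8 in ID8 at 1.03 ± 0.0331 and Rad51c in PMJ2R at 0.760 ± 0.0968.

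A second list held 86 further repair and checkpoint genes. In ID8 53 fell, 19 rose and 14 were not called, with a median of -0.44, where 42% of all genes were lower and 38.4% higher. In PMJ2R 63 of 85 tested fell, 14 rose and 8 were not called, with a median of -0.79, where 43.6% of all genes were lower and 40.1% higher. Slx4, a scaffold gene for the nucleases that resolve joined chromosomes, fell in ID8 from 41.6, 41.4 and 39.1 CPM to 4.93, 4.87 and 4.81 CPM (-3.06, SE 0.10, adjusted p = 7.75e-12). Gen1, which encodes a nuclease for the same junctions, fell in ID8 (-3.10, adjusted p = 5.56e-11) and in PMJ2R, there from 38.9, 38.03 and 41.5 CPM to 2.35, 2.04 and 2.23 CPM (-4.10, adjusted p = 3.89e-16). Timeless and Clspn, whose products carry the ATR signal to CHK1 at the replication fork, fell in PMJ2R by 3.32 and 2.94, and Timeless in ID8 by 1.79. Other genes rose, among them the translesion polymerase genes Rev1 in ID8 (1.04, adjusted p = 1.51e-07) and Polk in PMJ2R (1.60, adjusted p = 2.63e-13). Polk went from 19.04, 20.6 and 18.6 CPM to 57.6, 53.5 and 58.2 CPM there. Ercc3, the other helicase gene of TFIIH, rose by 0.86 in ID8, as did Rpa1 (0.75), which encodes a protein that coats single-stranded DNA and whose gene fell in PMJ2R (-0.18, adjusted p = 0.00638). In PMJ2R Ddb1, a partner gene of Ddb2, rose (1.03, adjusted p = 4.65e-13), as did Usp1 (0.91, adjusted p = 8.16e-13), which encodes the enzyme that clears ubiquitin from FANCD2.

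Many repair genes are transcribed mainly in dividing cells, so cell cycle genes were counted beside them. Of 25 genes of the G1/S step and DNA replication, 10 fell (40%) and 7 rose in ID8 (median -0.10), close to the 42% of all genes that were lower there. In PMJ2R 22 of them fell (88%) and 1 rose (median -0.84), where 43.6% of all genes were lower. Of 20 genes of the G2/M step, 15 fell (75%) and 3 rose in ID8 (median -0.54), and 17 fell (85%) and 1 rose in PMJ2R (median -1.34). The interaction was called lower in PMJ2R for 20 of the 25 and for 16 of the 20, beside 30.6% of all genes. The part of cell cycle changes in the fall of the repair genes was not tested.

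Over all genes tested, longer transcripts tended towards lower fold changes, and the 53 genes have a longer median transcript. The median longest transcript was 4251 bases for the 53 genes and 3004 bases for all genes tested in ID8. Spearman's rho between transcript length and log2 fold change was -0.42 over the 53 genes and -0.27 over all genes in ID8, and -0.27 and -0.17 in PMJ2R. These values describe genes that share libraries, depth and base composition. The longest internal exon had a median of 359 bases in the 53 genes and 185 bases in all genes. Its rho with the fold change was -0.32 and -0.34 over the 53 genes in ID8 and PMJ2R. Both length measures are uncertain where the longest transcript may not be the main one, as for Rad52, Ung and Rad54l. With trends of length and GC content removed from each library, 38 genes were lower in ID8 (43.5% of all genes) and 9 higher (38%), with a median of -0.71. In PMJ2R 44 were lower (44.6%) and 5 higher (38.3%), with a median of -0.95. Mdc1 was then at -4.46 in ID8 and -4.01 in PMJ2R, and Brca2 at -3.62 and -4.20. The part of transcript length in the falls was otherwise not tested.

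**Figure D5:**
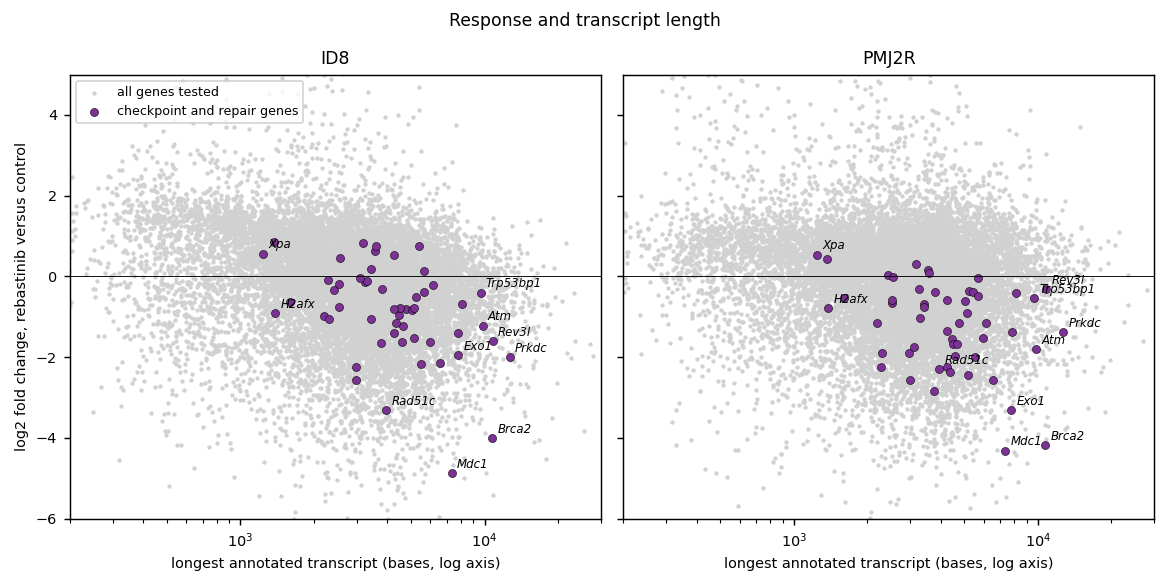
Length of the longest annotated transcript (x axis, bases, log scale) against the log2 fold change with rebastinib (y axis) in ID8 and PMJ2R, with grey points for all genes tested within the axes and purple points for the 53 genes. The purple points lie towards the right and mostly below 0.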

How the data were processed

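The authors deposited raw counts per gene, whole numbers in 1 table, with samples named by line, treatment and replicate. Per the submitters' processing notes, tools were STAR 2.6.1c, featureCounts, FastQC and DESeq2, on build GRCm38. The strand setting is not given in the sources used here, and 26 of the 53 genes share exon bases with another gene, so their values are uncertain. Symbols came from GENCODE M21, and 181 identifiers had none.

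The counts were tested with edgeR 4.0.16 (R 4.3.3, TMM, default expression filter, robust quasi-likelihood) and adjusted over all genes. The rebastinib comparisons used the 6 libraries of a line, and the interaction all 12. Alternatives were DESeq2 1.42.0, limma-voom 3.58.1, RLE factors, library totals, other filters, a replicate block, length and GC trends removed (splines with 5 df per library), and each library left out. Scripts were tested on simulated counts in which few genes changed, up and down alike. Such counts cannot test the scaling where most genes change, as in these data. No 2 libraries of a group agreed within sampling noise (chi-square per degree of freedom 1.67 to 21.4), so all were kept.

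Members and lists were chosen with earlier results of these data known. Per-library values are given for Atm, Atr, Chek1 and Chek2, for the largest called change per pathway and direction, the 6 smallest interaction p-values and the 6 largest control differences. Of the second list, the 3 genes per direction with the smallest p are named. Brca1, Rad50, Mre11a, Fancd2 and Ercc2, and values of rule-named genes in the other line, were added after they were seen.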

Additional observations from a re-analysis of the deposited data

Results flagged for a closer look

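For 32 of the 53 genes the rebastinib response differed between the lines by the interaction test of edgeR (adjusted p under 0.05), where 52.4% of all genes did. All values here are differences of the log2 response, PMJ2R minus ID8. Among checkpoint and chromatin genes the difference was -2.22 for Chek2, -0.91 for Wee1, -0.63 for Atm, -1.21 for Rnf8, -0.66 for Rnf168 and 0.50 for Mdc1. In homologous recombination it was -1.42 for Exo1, -0.96 for Rad50, -1.25 for Palb2, -0.52 for Nbn, -0.39 for Rad54l, -0.42 for Blm, -0.47 for Brca1, -0.52 for Rad52, -0.24 for Mre11a and 0.97 for Rad51c. Fanconi anaemia genes differed by -0.97 (Fanca), -0.56 (Fancc), -0.50 (Fanci) and 0.60 (Fancg). End joining genes differed by -0.97 (Xrcc6), -0.53 (Xrcc5) and 0.56 (Prkdc). Mismatch repair genes differed by -1.50 (Msh6) and -0.99 (Pms2). In excision repair the difference was -1.17 for Ercc5, -1.28 for Xpc, -0.73 for Ercc2, -0.89 for Ddb2, -0.48 for Ercc1 and -1.75 for Ung. For the translesion gene Rev3l it was 1.24.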

How the results depend on the processing

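With library totals as the scaling, 4 genes rose in ID8, 0 in PMJ2R and 3 had a higher interaction, beside 23.9%, 22.2% and 19.4% of all genes. Under the same scaling Fancc (-0.24) and Xpa (-0.021) reversed in PMJ2R and Chek2 reversed between controls (0.0064). With length and GC trends removed, 5 genes rose in PMJ2R, with or without the block, and the interaction of Atr reversed to -0.32 (-0.31 with the block). Higher interactions numbered 3 with limma-voom (25.9% of all genes) and 3 without a filter (10.3%). In ID8 Chek2 ran from -0.16 to 0.030 with 1 library left out, and it reversed without ID8 rebastinib 2. Leaving out each library in turn gave 2 to 5 higher interactions (2 without PMJ2R rebastinib 1, and 3 without PMJ2R rebastinib 3, ID8 control 1 or ID8 rebastinib 1). It gave 36 to 39 falls and 8 to 10 rises in ID8, and 45 to 46 and 3 in PMJ2R. Over all genes these fits called 11478 to 12233 in ID8, 11520 to 11972 in PMJ2R and 8104 to 8950 in the interaction. The labels describe no pairing of libraries by replicate number. The correlation of same-numbered deviations from the group mean ran from -0.17 to -0.023 in ID8 and from 0.0052 to 0.066 in PMJ2R. With 3 libraries per group these values cannot show whether the libraries were paired. With the replicate block 37 genes fell (40.4% of all genes) and 8 rose (36.6%) in ID8, and 45 fell (43.5%) and 3 rose (40.2%) in PMJ2R. The interaction was then lower for 26 (28.6%) and higher for 4 (20.4%). Between controls 19 were higher (38.5%) and 18 lower (42.2%). Levels of a few counts limit Rad51c in PMJ2R, which was not tested at a mean of at least 5 CPM. The causes of these shifts were not tested.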
